A study of Homo sapiens with 12 samples.

Results

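The VEGF receptors, coreceptors and ligands were followed in HEK293T cells as a set of 9 genes out of the 24407 features that the counts were summed to. They comprise the receptor tyrosine kinases KDR, FLT1 and FLT4, the coreceptors NRP1 and NRP2, and the ligands VEGFA, VEGFB, VEGFC and PGF. KDR was chosen by its measured level in these same libraries, which was higher with the p300 core, and the other 8 genes because they belong to the same ligand and receptor system. All 9 were found under their symbols and all 9 passed the filter on low counts, KDR only through its counts in the core libraries. Its differences between groups are therefore given as a description with no test.

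HEK293T is a cell line of human embryonic kidney origin, with the large T antigen of SV40. Every library came from cells transfected with plasmids for 1 protein and with guide RNAs for 4 sites at IL1RN, the gene of the interleukin 1 receptor antagonist, and no guide was directed at any of the 9 genes. The 4 proteins were dCas9-p300 core, dCas9-VP64, dCas9-p300 D1399Y and dCas9, with 3 libraries each and 12 in all. dCas9 binds DNA at the guide's site without cutting it. The p300 core is the catalytic part of a human histone acetyltransferase, D1399Y is a change in that core that removes its acetyltransferase activity, and VP64 is a viral activation domain. The proteins were expressed transiently from plasmids, so a library mixes cells that took up plasmid with cells that did not, and fewer responding cells cannot be told apart from less RNA per cell.

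VEGF signalling begins when a secreted dimeric ligand binds a receptor tyrosine kinase on the cell surface. KDR, also called VEGFR2, binds VEGFA and is the main signalling receptor of blood vessel endothelium. FLT1, or VEGFR1, binds VEGFA, VEGFB and PGF tightly with weak kinase activity, and it also gives rise to soluble forms that trap ligand. FLT4, or VEGFR3, binds VEGFC and is best known from lymphatic endothelium. The neuropilins NRP1 and NRP2 have no kinase activity of their own and hold ligands for the receptors, and they also serve as receptors for class III semaphorins in neurons.

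The start of KDR is shown because KDR is the member whose RNA stood apart, and the start of FLT1 because it is the sister receptor whose RNA did not follow. Both are RefSeq sequences of GRCh38.p14 from 250 bases before to 50 bases after the gene's start, written along the gene's own strand. Capitals mark GC boxes (GGGCGG, or CCGCCC where it lies on the other strand) and a TATA box (TATAAA, or TTTATA on the other strand). No marked motif overlaps another of a different kind. The KDR stretch lies on the minus strand at chr4:55125546-55125845 and the FLT1 stretch on the minus strand at chr13:28495079-28495378.
KDR: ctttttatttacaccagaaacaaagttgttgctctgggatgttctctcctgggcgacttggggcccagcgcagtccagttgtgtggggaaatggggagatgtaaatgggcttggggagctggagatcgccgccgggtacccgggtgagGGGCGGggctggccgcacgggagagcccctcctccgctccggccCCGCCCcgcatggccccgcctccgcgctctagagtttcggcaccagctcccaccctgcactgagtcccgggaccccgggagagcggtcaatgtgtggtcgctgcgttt
FLT1: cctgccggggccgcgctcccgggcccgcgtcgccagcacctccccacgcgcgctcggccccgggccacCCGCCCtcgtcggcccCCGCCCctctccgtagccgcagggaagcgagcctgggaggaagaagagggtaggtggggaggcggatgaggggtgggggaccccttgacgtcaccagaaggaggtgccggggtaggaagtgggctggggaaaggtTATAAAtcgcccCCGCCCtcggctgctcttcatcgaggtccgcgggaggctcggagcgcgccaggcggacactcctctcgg

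The KDR stretch held 2 GC boxes and no TATAAA, and 65.0% of its bases were G or C, above 66.8% of the 35116 promoters in the same table. The FLT1 stretch held 3 GC boxes and 1 TATAAA, with 73.3% G or C. Promoters were at hand for 6 of the 9 genes (KDR, FLT1, NRP2, VEGFB, VEGFC and PGF), and FLT4, NRP1 and VEGFA are only named. All 6 held at least 1 GC box, against 45% of all promoters, and FLT1 was the 1 of the 6 with TATAAA, against 11.5% of all promoters. Of the 6, 4 held the core of the hypoxia response element as GCGTG on either strand, beside 36.5% of all promoters. None of the 6 held its other form ACGTG, found in 21.4% of all promoters. KDR held neither in this window. PGF was read over 2 windows and each other gene over 1.

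Total counts per library ran from 2442960 in dCas9 replicate 3 to 5154627 in core replicate 2. Levels are in CPM, counts scaled to the TMM-normalized library size. The targeted gene IL1RN averaged 83.4 ± 8.82 CPM with the core, 24.7 ± 6.10 CPM with VP64, 7.78 ± 1.41 CPM with D1399Y and 6.80 ± 2.63 CPM with dCas9 (SD, n = 3 each). EP300, whose plasmid copy of the core can add reads to the gene's own row, averaged 391 ± 55.6 CPM with the core, 131 ± 8.47 CPM with VP64, 430 ± 36.9 CPM with D1399Y and 108 ± 48.3 CPM with dCas9. dCas9 replicate 3 stood apart from the other 11 libraries. For the core, log2 fold changes over dCas9 that moved with it are given with and without it, except for the mural markers. Those are given with it alone. Replicate 3 of the core and of D1399Y carries the prefix CV42 in the labels, whose meaning is not given, and the other 10 libraries carry CV41.

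KDR RNA was present at a low level in all 4 groups and was higher with the p300 core. The core libraries held 27, 46 and 34 KDR counts, the VP64 libraries 2, 7 and 6, the D1399Y libraries 8, 2 and 6, and the dCas9 libraries 3, 7 and 2. All 3 core libraries lay above all 9 others. In CPM these counts are 7.11, 8.85 and 8.95 with the core, 0.493, 1.78 and 1.53 with VP64, 2.16, 0.581 and 1.59 with D1399Y, and 0.847, 1.67 and 0.759 with dCas9. The lowest core library was 3.29 times as high as the highest other library, D1399Y replicate 1. The exact Poisson 95% interval on the 27 counts of core replicate 1, which covers counting error only, ran from 17.8 to 39.3 counts, and that on the 8 counts of D1399Y replicate 1 from 3.45 to 15.8.

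**Figure D1:**
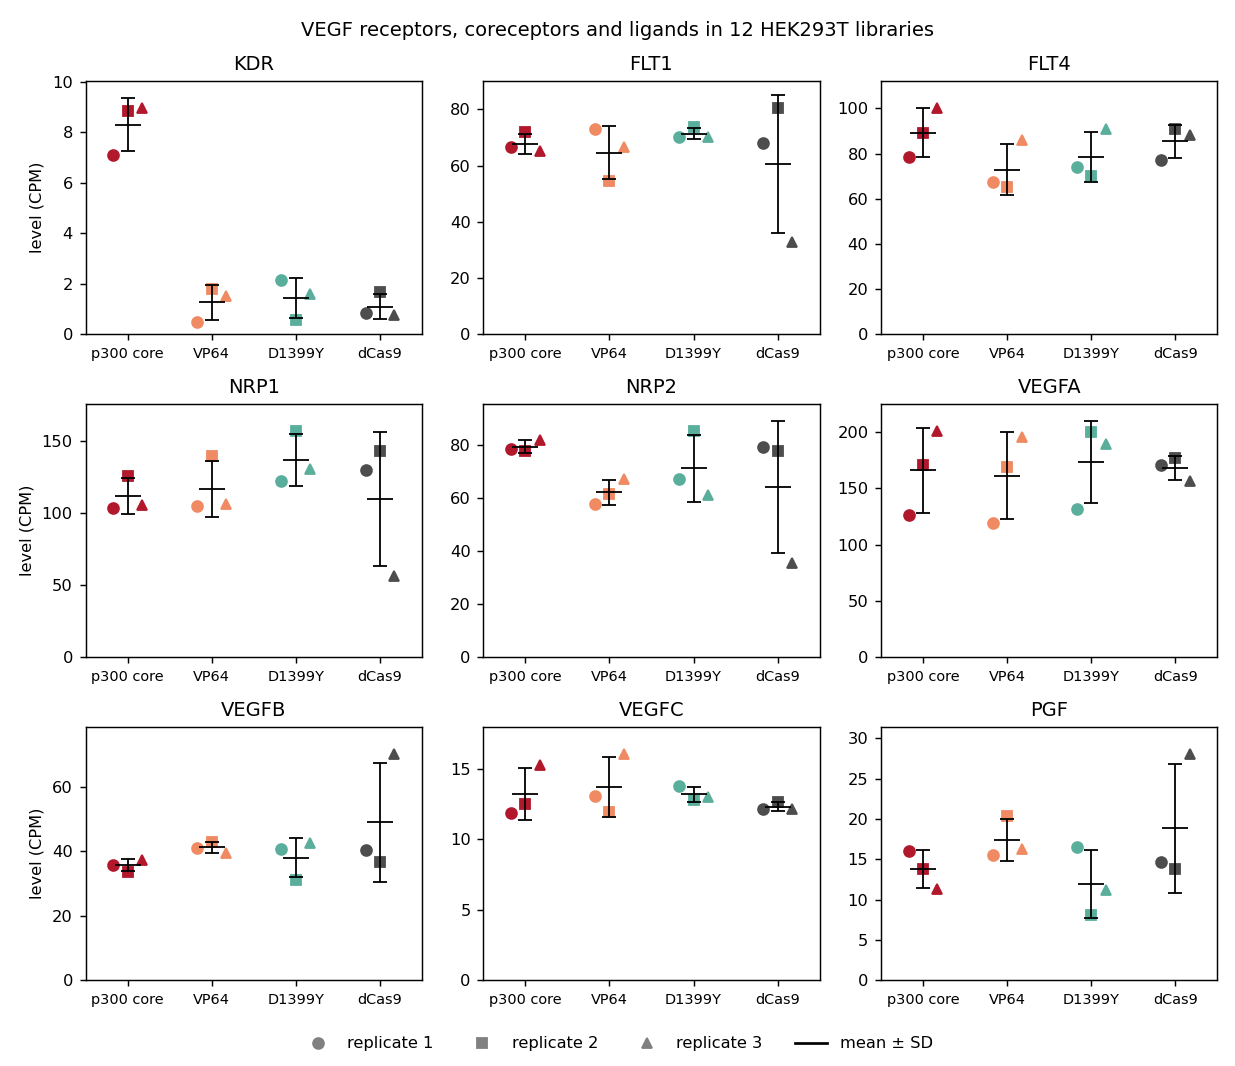
Level in CPM on a linear axis from 0 (y axis) of each of the 9 genes in the 4 groups (x axis), with a symbol for each replicate and bars for the mean ± SD of 3 libraries. The 3 core libraries sit between 7.11 and 8.95 CPM for KDR, above the highest other library at 2.16 CPM, while for the 8 other genes the core values lie within the span of the other groups or close to it.

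The group means of KDR were 8.31 ± 1.04 CPM with the core, 1.27 ± 0.682 CPM with VP64, 1.45 ± 0.802 CPM with D1399Y and 1.09 ± 0.503 CPM with dCas9 (SD, n = 3 each). The fitted KDR level with the core was 7.09-fold that with dCas9 (95% interval 3.78 to 13.3; log2 2.83 ± 0.42, SE). It was 5.59-fold that with D1399Y (3.09 to 10.1; log2 2.48 ± 0.40) and 6.47-fold that with VP64 (3.55 to 11.8; log2 2.69 ± 0.40). The 3 comparisons share the core libraries. KDR was chosen for this rise, so these folds and intervals take no account of that choice and test nothing. Without dCas9 replicate 3 the log2 fold change against dCas9 was 2.66, and without dCas9 replicate 2, the library with 7 of the group's 12 counts, it was 3.33. Among the CV41 libraries alone the log2 fold changes were 2.79 against dCas9, 2.5 against D1399Y and 2.64 against VP64, and within CV42 the core library held 34 KDR counts and the D1399Y library 6.

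How rare such a profile was can be read from the 14621 genes tested. In 121 of them, 0.828%, all 3 core libraries exceeded the 9 others. A lowest core level over 2 times the highest other level was found in 2 genes, 0.0137%, IL1RN with a ratio of 2.34 and KDR with 3.29. A fitted fold above 4 over dCas9 was found in 3 genes, 0.0205%, KDR being 1 of them, and above 4 over D1399Y or over VP64 in 0.0342% each. KDR was chosen for this profile, so these shares describe it and test nothing.

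Outside the core group, the fitted KDR level with VP64 was 1.10-fold that with dCas9 (95% interval 0.472 to 2.55), and with D1399Y it was 1.27-fold that with dCas9 (0.552 to 2.91). Both are given with no test as well, because KDR passed the count filter only through the core libraries. The ranges of the VP64, D1399Y and dCas9 libraries overlapped, so their order has no support from the spread.

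KDR was the lowest expressed of the 9 genes even with the core. Per length, that is CPM per kilobase of the longest matched transcript, KDR stood at 1.37 ± 0.171 with the core, 0.209 ± 0.113 with VP64, 0.239 ± 0.132 with D1399Y and 0.180 ± 0.0831 with dCas9. In the core libraries FLT1 stood at 9.56 ± 0.497 and FLT4 at 15.2 ± 1.84 CPM per kilobase. Of the summed per-length level of the 3 receptors, KDR made up 4.90% to 5.46% in the core libraries and 0.372% to 1.56% in the 9 others. These shares assume that reads shared by isoforms were counted once, a counting rule that the sources used here leave unstated.

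Over the 12 libraries the per-length levels ran, in CPM per kilobase, from KDR at 0.500 through VEGFC at 6.35, PGF at 8.03, FLT1 at 9.32, NRP2 at 10.4, FLT4 at 13.9, NRP1 at 20.2 and VEGFB at 29.7 to VEGFA at 47.3. With 1 row per gene, the transcript of the highest count, KDR was again lowest at 0.500 and NRP2 next at 2.54, while VEGFA stood at 2.82 and VEGFB stood highest at 15.5 CPM per kilobase. The divisor here was still the gene's longest transcript, also where the row counted is a shorter one. The values are therefore not per-length levels of that row. The place of KDR at the bottom was the same on both measures. The order of the others was not, and it is approximate on the second. VEGFA is listed as 18 rows whose counts ran from 17 to 57 in single libraries, whereas KDR and VEGFC have 1 row each, so their counts do not depend on how isoforms were split.

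In the other 8 genes no comparison between groups passed the test. The background was small too, since 2 of 14621 genes, 0.0137%, passed with the core against dCas9, namely IL1RN and EP300, 0.00684% with the core against D1399Y, 0.00684% with the core against VP64, 0.0% with VP64 against dCas9 and 0.00684% with D1399Y against dCas9. The 1 gene in the comparison of D1399Y with dCas9 was EP300, and that count was 0 once replicate number entered as a block. At an unadjusted p below 0.05, the main edgeR fit held 0 of the 8 members in each of the 5 comparisons. Of all genes tested it held 460, or 3.15%, with the core against dCas9. It held 1.82% with the core against D1399Y and 2.05% with the core against VP64. With VP64 against dCas9 the share was 3.08%, and with D1399Y against dCas9 it was 6.12%. DESeq2 and limma-voom placed 0 of the 8 past the threshold in each comparison as well. Groups that did not overlap were also few. With the core against dCas9, 0 of the 8 had all core libraries above and 0 had all below the dCas9 libraries, where 3.68% and 3.21% of all genes did. Against D1399Y the counts were 0 and 0, beside 5.42% and 4.43%, and against VP64 they were 1 and 1, beside 5.5% and 4.75%. VP64 against dCas9 gave 0 above and 0 below, beside 3.04% and 2.87%, and D1399Y against dCas9 gave 1 and 0, beside 3.26% and 3.88%. The median log2 fold change of the 8 was 0.04 with the core over dCas9, beside 0.00 for all genes tested, and their 95% intervals lay between 0.475-fold and 1.73-fold.

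**Figure D2:**
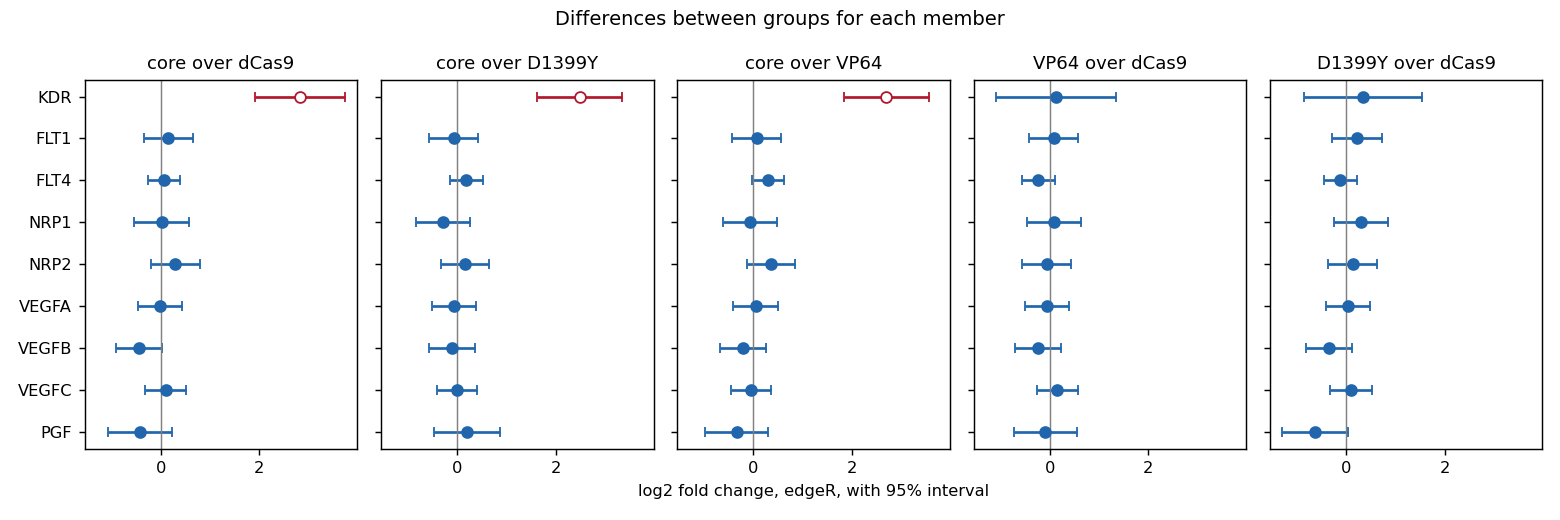
Log2 fold change of each gene (y axis) in the 5 comparisons (panels), with edgeR 95% intervals (x axis); open red symbols mark the KDR values that chose the gene. The KDR values with the core lie between 2.48 and 2.83, and the intervals of the 8 other genes all include 0.

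Among the receptors, FLT1 had 66.6, 71.8 and 65.0 CPM in core libraries, 72.9, 54.4 and 66.5 CPM in VP64 libraries, 70.3, 73.8 and 70.0 CPM in D1399Y libraries, and 68.0, 80.4 and 33.0 CPM in dCas9 libraries. The groups overlapped, and dCas9 replicate 3 was the lowest of the 12. The core level was 1.11-fold the dCas9 level (95% interval 0.785 to 1.57; adjusted p = 0.886, edgeR), and without dCas9 replicate 3 the log2 fold change turned from 0.15 to -0.13.

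FLT4 had 78.5, 89.1 and 100.1 CPM in core libraries, 67.3, 65.4 and 85.8 CPM in VP64 libraries, 74.1, 70.3 and 91.0 CPM in D1399Y libraries, and 77.1, 90.7 and 88.4 CPM in dCas9 libraries. Here the groups overlapped and dCas9 replicate 3 lay with the rest. The core level was 1.04-fold the dCas9 level (0.830 to 1.31; adjusted p = 0.927, edgeR) and 1.23-fold the VP64 level (0.974 to 1.54; adjusted p = 1.00). Per library, FLT4 in replicate 3 was the highest value of the core, VP64 and D1399Y groups.

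The rows of FLT1 separate its membrane receptor, NM_002019, from 3 shorter transcripts, NM_001159920, NM_001160030 and NM_001160031, which encode soluble forms. The soluble rows held 147 of 253, 231 of 373 and 165 of 247 FLT1 counts in the core libraries. As a share of FLT1 counts they made up 62.3 ± 4.36% with the core, 62.4 ± 0.737% with VP64, 64.4 ± 5.28% with D1399Y and 67.7 ± 3.76% with dCas9 (SD, n = 3 each). Single libraries ranged from 58.1% to 66.8% with the core, 61.8% to 63.2% with VP64, 58.8% to 69.3% with D1399Y and 63.8% to 71.3% with dCas9. All 3 VP64 libraries lay below all 3 dCas9 libraries, but only just, at 63.2% against 63.8% where they came closest. The ranges of the other pairs of groups overlapped. The highest dCas9 share, in replicate 3, rests on 87 FLT1 counts. No test was run on these shares, and no share over other genes is given beside them. How reads common to these rows were assigned is not given, so the shares describe the files and not the molar ratio of the forms.

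The neuropilins are the coreceptors of the family, and neither passed the test in any comparison. NRP1 had 103, 126 and 106 CPM in core libraries, 104, 139 and 106 CPM in VP64 libraries, 122, 157 and 130 CPM in D1399Y libraries, and 130, 143 and 56.5 CPM in dCas9 libraries. Replicate 2 was the highest library in each of the 4 groups, and dCas9 replicate 3 was the lowest of the 12. The core level was 1.01-fold the dCas9 level (0.690 to 1.48; adjusted p = 0.991, edgeR), and the log2 fold change moved from 0.02 to -0.29 without dCas9 replicate 3.

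NRP2 had 78.7, 77.8 and 82.2 CPM in core libraries, 57.9, 61.8 and 67.2 CPM in VP64 libraries, 67.4, 85.4 and 61.3 CPM in D1399Y libraries, and 79.3, 77.8 and 35.7 CPM in dCas9 libraries. The 3 core libraries lay above the 3 VP64 libraries, as they did in 5.5% of all genes tested, at 1.28-fold (0.907 to 1.80; adjusted p = 1.00, edgeR). Against dCas9 the core level was 1.23-fold (0.871 to 1.73; adjusted p = 0.870), with a log2 fold change of 0.29, and 0.02 without dCas9 replicate 3.

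VEGFA, the principal ligand of KDR, had 126, 171 and 201 CPM in core libraries, 120, 169 and 196 CPM in VP64 libraries, 132, 200 and 189 CPM in D1399Y libraries, and 171, 177 and 157 CPM in dCas9 libraries. Replicate 1 was the lowest library of the core, VP64 and D1399Y groups, and the spread within those groups exceeded the differences between means. The core level was 0.986-fold the dCas9 level (0.723 to 1.35; adjusted p = 0.987, edgeR).

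VEGFB, a ligand of FLT1, had 35.8, 33.7 and 37.4 CPM in core libraries, 41.1, 43.0 and 39.5 CPM in VP64 libraries, 40.6, 31.1 and 42.4 CPM in D1399Y libraries, and 40.4, 36.5 and 70.2 CPM in dCas9 libraries. The 3 core libraries lay below the 3 VP64 libraries, as they did in 4.75% of all genes tested, at 0.864-fold (0.627 to 1.19; adjusted p = 1.00, edgeR). Against dCas9 the core level was 0.734-fold (0.532 to 1.01; unadjusted p = 0.0588 and adjusted p = 0.870, edgeR), a log2 fold change of -0.45 that became -0.11 without dCas9 replicate 3.

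VEGFC, a ligand of FLT4, was the steadiest of the 9. Its highest library, 16.0 CPM in VP64 replicate 3, was 1.35 times its lowest, 11.9 CPM in core replicate 1. It had 11.9, 12.5 and 15.3 CPM in core libraries, 13.1, 12 and 16.0 CPM in VP64 libraries, 13.8, 12.8 and 13 CPM in D1399Y libraries, and 12.1, 12.7 and 12.1 CPM in dCas9 libraries. The D1399Y libraries lay above the dCas9 libraries, as in 3.26% of all genes tested, at 1.07-fold (0.800 to 1.43; adjusted p = 0.830, edgeR). The core level was 1.07-fold the dCas9 level (0.802 to 1.43; adjusted p = 0.906).

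PGF, placental growth factor, binds FLT1. It had 16.1, 13.9 and 11.3 CPM in core libraries, 15.5, 20.4 and 16.3 CPM in VP64 libraries, 16.5, 8.13 and 11.1 CPM in D1399Y libraries, and 14.7, 13.8 and 28.1 CPM in dCas9 libraries. The groups overlapped in each comparison. The core level was 0.743-fold the dCas9 level (0.475 to 1.16; adjusted p = 0.870, edgeR) and the D1399Y level 0.647-fold (0.409 to 1.02; unadjusted p = 0.0609, adjusted p = 0.618), and without dCas9 replicate 3 these log2 fold changes of -0.43 and -0.63 became -0.05 and -0.25. VEGFD, the remaining ligand of FLT4, had 8 counts in all, 5 of them with the core and 1 in each other group, and was not tested.

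dCas9 replicate 3 departed from the other libraries in both directions among the 9 genes. Relative to the mean of the 11 others its log2 level was -1.05 for FLT1, -1.12 for NRP1 and -1.0 for NRP2, but 0.87 for VEGFB and 0.98 for PGF. KDR stood at -1.09, but its mean of the others includes the high core libraries. On the same measure KDR had -0.98 in dCas9 replicate 1, -0.24 in dCas9 replicate 2 and -1.45 in VP64 replicate 1. FLT4 at 0.14, VEGFA at -0.08 and VEGFC at -0.11 lay close to the other libraries. All tested genes ranged from -1.38 to 0.89 between the 5th and 95th percentile in this library, so PGF was the 1 member outside that range. The library also had the lowest total count, and the part of depth in these differences was not tested.

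**Figure D3:**
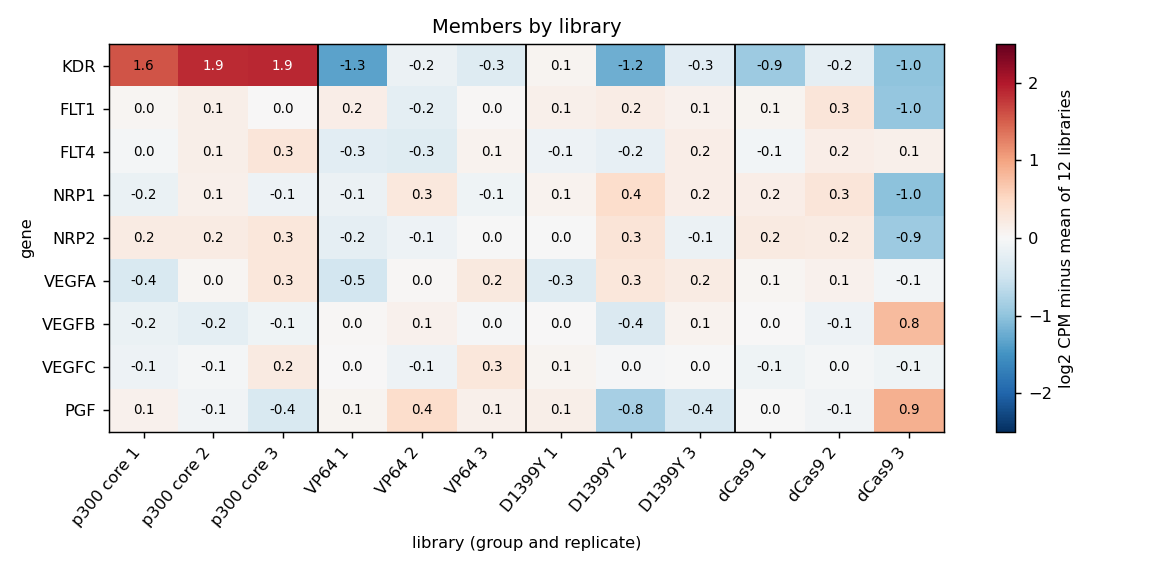
Log2 CPM of each gene (y axis) minus its mean over 12 libraries, by library (x axis, group and replicate number), with the value printed in each cell. KDR is high in the 3 core libraries, and in dCas9 replicate 3 FLT1, NRP1 and NRP2 are low while VEGFB and PGF are high.

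The genes around KDR on chromosome 4 were examined next, in the gene order of GRCh38. KDR has the receptor tyrosine kinase genes KIT and PDGFRA as its neighbours on one side and SRD5A3, a gene of dolichol synthesis, on the other. KIT averaged 91.8 ± 3.55 CPM with the core, 80.2 ± 18.6 CPM with VP64, 88.9 ± 8.90 CPM with D1399Y and 85.8 ± 42.1 CPM with dCas9 (SD, n = 3 each). Its log2 fold change with the core over dCas9 was 0.09 ± 0.28. PDGFRA, at 4.49 ± 1.74 CPM with the core and 3.93 ± 1.74 CPM with dCas9, had 0.20 ± 0.46, and SRD5A3 had 0.06 ± 0.29. None of the 10 tested neighbours passed the test in any of the 5 comparisons by edgeR, and 0 had an unadjusted p below 0.05. For the core over dCas9 the 10 ranged from -0.28 for NMU, a neuropeptide gene, to 0.26 for LNX1, a ubiquitin ligase gene, with a median of 0.07. Without dCas9 replicate 3 the median was 0.08, KIT had -0.24, CLOCK -0.18, PDGFRA 0.17, SRD5A3 0.26, NMU 0.15 and LNX1 0.12, so that KIT, CLOCK and NMU turned in sign, as did FIP1L1, CHIC2 and EXOC1, which lay within 0.15 of 0 in both fits. The other tested neighbours were FIP1L1, CHIC2, TMEM165, CLOCK and EXOC1, and GSX2 and PDCL2 had 0 counts in all 12 libraries.

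**Figure D4:**
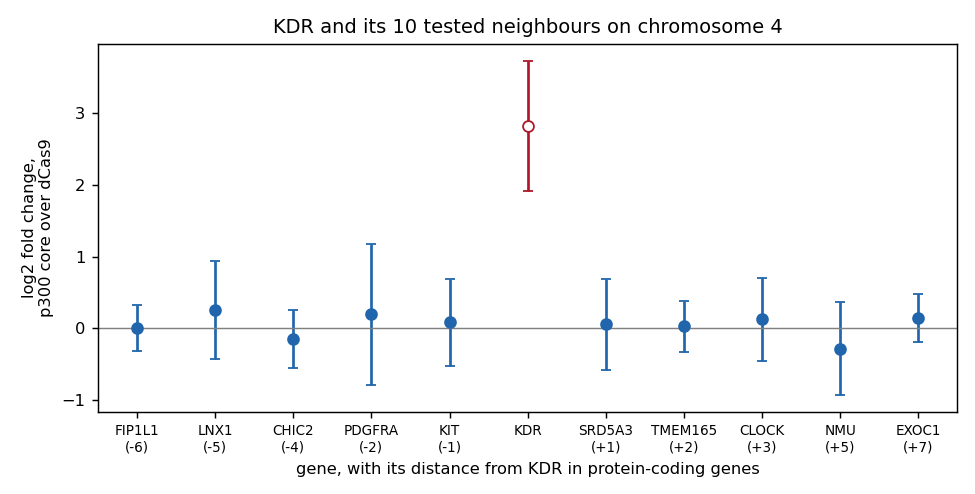
Log2 fold change with the p300 core over dCas9 (y axis, with edgeR 95% intervals) for KDR, in open red, and its 10 tested neighbours in chromosome order (x axis, with the distance counted in protein-coding genes). KDR stands at 2.83 and its neighbours lie between -0.28 and 0.26.

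The profile of KDR over the 12 libraries was set against every tested gene by the root mean square difference of centred log2 CPM, where a flat profile scores 1.11. The 5 genes nearest to KDR were PDE2A at 0.512, CRISPLD2 at 0.575, TGM2 at 0.577, ADGRG1 at 0.662 and DCAF4L1 at 0.664. PDE2A, a cyclic nucleotide phosphodiesterase, averaged 9.70 ± 2.71 CPM with the core, 2.69 ± 1.22 CPM with VP64, 2.35 ± 1.07 CPM with D1399Y and 2.99 ± 0.882 CPM with dCas9. TGM2, a transglutaminase, averaged 12.9 ± 2.82 CPM with the core, 4.79 ± 1.58 CPM with VP64, 5.99 ± 2.87 CPM with D1399Y and 5.30 ± 2.0 CPM with dCas9. The log2 fold change with the core over dCas9 was 1.70 for PDE2A, 1.5 for CRISPLD2, 1.24 for TGM2, 1.34 for the adhesion receptor gene ADGRG1 and 1.55 for DCAF4L1, each below that of KDR, and 1.78, 1.16, 1.04, 1.46 and 1.63 in the same order without dCas9 replicate 3. IL1RN ranked 110 at 0.897. Of the other family members NRP2 came nearest, at rank 893 and 1.02, and VEGFB lay farthest, at rank 13638 and 1.24. Genes were picked here for likeness, so these values are descriptions.

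Downstream of the receptors, 45 of 46 genes of VEGF signalling were tested. Of the 45, 26 lay above 0 with the core over dCas9, at a median log2 of 0.07, beside 50.6% of all genes tested and a median of 0.00, and 0 passed the test in any comparison by edgeR. At an unadjusted p below 0.05 the list had 1 gene with the core over dCas9, 0 over D1399Y and 1 over VP64. It had 1 with VP64 over dCas9 and 2 with D1399Y over dCas9. The shares of all genes tested were 3.15%, 1.82%, 2.05%, 3.08% and 6.12% in the same order. The 1 with the core over dCas9 was PLCG2, a phospholipase C, at 36.1 ± 2.35 CPM with the core and 25.1 ± 2.76 CPM with dCas9 (log2 0.52 ± 0.18; adjusted p = 0.870). SH2D2A, an adaptor that binds KDR, had a log2 of -0.62 ± 0.34, the small GTPase RAC1 -0.23 ± 0.13 and the adaptor GAB1 0.44 ± 0.25. Without dCas9 replicate 3 PLCG2 had 0.48, SH2D2A -0.32, RAC1 -0.07 and GAB1 0.17. In that fit 20 of the 45 lay above 0, at a median of -0.02. Of all 14621 genes tested, 7132 did, at a median of -0.004. NOS3, the endothelial nitric oxide synthase, had 51 counts in all and was not tested.

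Regulators of the ligands, among them the hypoxia factors and their prolyl hydroxylases, were all tested, 14 of 14. Of the 14, 8 lay above 0 with the core over dCas9, at a median log2 of 0.02, beside 50.6% of all genes tested, and 0 passed in any comparison by edgeR. Unadjusted p was below 0.05 for 1 of the 14 with D1399Y over dCas9, beside 6.12% of all genes tested, and for 0 in each of the other 4 comparisons. EGLN2, a prolyl hydroxylase that marks HIF subunits for decay, had -0.54 ± 0.27, and its relative EGLN3 -0.20 ± 0.27. HIF1A had 0.18 ± 0.26 and the RNA binding protein gene HNRNPL -0.22 ± 0.15. Without dCas9 replicate 3 EGLN2 had -0.24, EGLN3 -0.32, HNRNPL -0.09 and HIF1A -0.15, a turn in sign for HIF1A. In that fit 2 of the 14 lay above 0, at a median of -0.15. Of all 14621 genes tested, 7132 did, at a median of -0.004.

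The list of semaphorins and plexins that share the neuropilins, with other neuropilin partners such as GIPC1, was also all tested, 14 of 14. Values above 0 were found for 12 of the 14 with the core over dCas9, at a median log2 of 0.16, beside 50.6% of all genes tested and a median of 0.00, and 0 passed in any comparison by edgeR. An unadjusted p below 0.05 was again found for 1 of the 14 with D1399Y over dCas9, beside 6.12% of all genes tested, and for 0 in each of the other 4 comparisons. The plexin genes PLXNA1, PLXNA2 and PLXNA3 had log2 fold changes of 0.39 ± 0.19, 0.37 ± 0.23 and 0.34 ± 0.17, and GIPC1, an adaptor of NRP1, had -0.34 ± 0.22. Without dCas9 replicate 3 the 3 plexin genes had 0.30, 0.36 and 0.30 and GIPC1 had 0.01, a turn in sign. In that fit 10 of the 14 lay above 0, at a median of 0.05, beside 7132 of the 14621 genes tested. With the core over D1399Y, 10 of the 14 lay above 0 at a median of 0.17, beside 50.4% of all genes tested. With the core over VP64, 11 of the 14 did at a median of 0.20, beside 49.3%. Of 10 further genes related to the family, KIT and PDGFRA among them, 5 were tested, 0 passed in any comparison by edgeR and 0 had an unadjusted p below 0.05. DESeq2 and limma-voom placed 0 genes of these 4 lists, and 0 of the neighbours of KDR, past the threshold. The receptor gene FLT3 had a log2 of 0.57 ± 0.33 with the core over dCas9, PDGFA had -0.27 ± 0.23 and PDGFC -0.12 ± 0.17, and without dCas9 replicate 3 they had 0.51, -0.09 and -0.003.

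KDR is a marker of endothelium, so the other endothelial genes were read in the same libraries. Of 20 endothelial markers, ROBO4, SOX17 and LYVE1 had 0 counts in all 12 libraries, and CDH5, TIE1, ERG, CLDN5 and VWF had 2, 1, 1, 2 and 7 counts in all. These 8 thus had at most 7 counts each in all, and the other 12 had 29 or more. ENG and ETV2 still reached 0 CPM in their lowest library. PECAM1 had 68 counts and TEK 50, with mean levels of 1.53 and 1.13 CPM over the 12 libraries, about the level of KDR outside the core group, and ENG had 30 counts and ETV2 29. Of the 20, 7 passed the count filter, PROX1 at a mean of 41.8 CPM, EGFL7 at 25.4 CPM and SOX7 at 10.1 CPM among them. None of the 7 passed the test with the core over dCas9 by edgeR. Their log2 fold changes there were 0.56 for TAL1, 0.29 for SOX7, 0.19 for PROX1 and 0.02 for SOX18. EMCN had -0.03, EGFL7 -0.20 and STAB1 -0.60. Without dCas9 replicate 3 the 7 had 0.79, 0.21, -0.18, 0.33, -0.03, -0.07 and -0.57 in the same order. The summed level of the 20 ran from 94.5 to 108 CPM with the core, 88.0 to 98.8 CPM with VP64, 95.9 to 101 CPM with D1399Y and 81.2 to 104 CPM with dCas9, ranges that overlap. ESAM, an endothelial adhesion molecule singled out after its values were seen, had 33 counts over the core libraries, 9 over VP64, 10 over D1399Y and 11 over dCas9, and was below the filter. Of 10 markers of the renal and neuronal lineage of HEK293 cells, such as PAX2, LHX1 and NEFM, 9 passed the filter, with a summed level of 409 to 531 CPM with the core, 440 to 551 CPM with VP64, 410 to 502 CPM with D1399Y and 427 to 577 CPM with dCas9. The sum of 7 markers of mural cells ran from 199.9 to 218.6 CPM with the core and 172.9 to 207.3 CPM with VP64. It ran from 192.6 to 202.1 CPM with D1399Y and 176.5 to 199.8 CPM with dCas9. The core range lay just above that of dCas9 and overlapped the others. With the core over dCas9 the log2 fold changes were 0.76 for CSPG4, 0.57 for RGS5, 0.31 for MYH11 and 0.20 for NOTCH3. They were -0.27 for ACTA2 and -0.35 for ANPEP, and DES was below the filter. These mural fold changes all include dCas9 replicate 3. The part of the mural sum in the KDR values was not tested. The sums of 6 fibroblast and 7 blood markers overlapped between the core and dCas9, at 26.8 to 29.2 against 23.7 to 31.7 CPM and at 7.31 to 11.6 against 9.31 to 12.1 CPM.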

How the data were processed

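Polyadenylated RNA was sequenced from 12 libraries of transfected HEK293T cells, 3 for each of 4 proteins. The authors deposited raw counts in whole numbers for 40709 RefSeq transcripts per library. The submitters' processing notes name the build hg19 and, without roles, DESeq2 1.6.2, R 3.1.2, Bowtie2, CASAVA and SAMtools. Strand setting and the rule for reads shared by isoforms: not given in the sources used here.

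Transcripts were named through RefSeq (39324) and GENCODE (526), and 859, with 1.07% of counts, kept their identifier. Counts were summed per gene. edgeR 4.0.16 in R 4.3.3 was run with TMM, filterByExpr (minimum count 10, minimum total 15), and 1 quasi-likelihood fit of 4 group means. Two-sided p-values were adjusted by Benjamini-Hochberg over 14621 genes at a threshold of 0.05, and ± after a log2 value is a standard error. The script was tested on simulated data. log2 CPM used a prior count of 2. Other software was limma 3.58.1, DESeq2 1.42.0, Python 3.11.15, pandas 2.3.3, SciPy 1.17.1 and matplotlib 3.10.9. Transcript lengths, gene order and promoters came from GRCh38, so no hg19 coordinates are given.

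The members, lists and comparisons were chosen with earlier results of these data known. Genes named are the 9 members, IL1RN and EP300, at most 4 genes of each list by unadjusted p with the core against dCas9, the 10 tested neighbours, the 5 genes nearest to KDR in profile, the cell type markers read as a check, NOS3 and VEGFD as genes below the filter, and ESAM, which was chosen after its values were seen. Beyond transfection in triplicate the labels give no origin of replicates, and p-values reflect spread between samples that may be technical. Deviations from group means correlated between libraries of the same replicate number at 0.276, 0.25 and 0.36 for the core with VP64. For D1399Y with dCas9 they correlated at 0.237, 0.485 and 0.497. The numbers may therefore pair samples in those comparisons, judged from the data alone. The main fit has no replicate block, so its p-values and intervals ignore such a pairing, and the blocked fit is given as an alternative. Fold changes and counts of calls were recomputed leaving out each library, with the highest transcript per gene, with the replicate number blocked, with the CV prefix as covariate, on CV41 libraries alone, on the compared groups alone, without a filter, with a filter of 1 CPM in 6 libraries, with upper-quartile or RLE factors, and by limma-voom and DESeq2. List counts under these alternatives, and the values of list genes, neighbours and endothelial markers without dCas9 replicate 3, were added after the data were examined. Intervals on single counts cover counting error only.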

Additional observations from a re-analysis of the deposited data

How the results depend on the processing

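The KDR log2 fold change with the core kept its direction under every alternative run. That was to be foreseen, since KDR was chosen for this rise and all its core libraries lay above all others. The values below therefore describe only how far the size of the difference moved. Settings that kept all libraries of the compared groups, or CV41 alone, gave 2.77 to 2.87 over dCas9, 2.47 to 2.55 over D1399Y and 2.64 to 2.76 over VP64. Leaving out 1 library gave 2.65 to 3.33 over dCas9, 2.13 to 2.88 over D1399Y and 2.31 to 3.01 over VP64, with 3.33 reached without dCas9 replicate 2. KDR fell below the count filter in the fits of VP64 and dCas9 alone and of D1399Y and dCas9 alone, which gave no value.

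For the 8 other genes, 671 of 680 values from alternatives kept their direction or moved by less than a standard error, and none passed the threshold. The 9 that reversed were all without dCas9 replicate 3. At an unadjusted p below 0.05 the alternatives held up to 1 of the 8 with the core over dCas9. They held up to 1 with the core over D1399Y and up to 2 over VP64. Up to 1 was found with VP64 over dCas9 and up to 2 with D1399Y over dCas9. Over all genes tested such counts reached 2068, 569, 760, 1900 and 3068 in the same order. Over dCas9, leaving out 1 library gave the core -0.13 to 0.42 for FLT1 and -0.29 to 0.26 for NRP1. It gave VP64 -0.20 to 0.35 for FLT1, -0.23 to 0.33 for NRP1, -0.39 to 0.10 for VEGFB and -0.25 to 0.29 for PGF. It gave D1399Y -0.059 to 0.49 for FLT1, -0.002 to 0.55 for NRP1 and -0.14 to 0.31 for NRP2. The value without dCas9 replicate 3 is the lower end for FLT1, NRP1 and NRP2 and the upper end for VEGFB and PGF. The counts past the threshold for the 4 gene lists and the neighbours were 0 in all 450 cases, 1 for each list, comparison and setting. At an unadjusted p below 0.05 the highest such count was 10, for the signalling list with D1399Y over dCas9.

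Counts of genes past the threshold are small and shift by a few. For the core over dCas9 the count of 2 became 4 by DESeq2, and 1 with the replicate block, with the prefix as covariate, in CV41 alone and with the compared groups alone. For the core over D1399Y the count of 1 became 4 by DESeq2 and with the compared groups alone. Against VP64 the core's count of 1 became 2 with upper-quartile factors, 5 by DESeq2, 3 without a filter, 6 with the compared groups alone, and 0 with the prefix as covariate and in CV41 alone. With VP64 over dCas9 the count of 0, beside 450 genes at an unadjusted p below 0.05, became 1 by DESeq2, without a filter and with the replicate block. With D1399Y over dCas9 the count of 1 became 0 with the replicate block, with the prefix as covariate, in CV41 alone and with the compared groups alone. Leaving out 1 library gave 1 to 2 genes with the core over dCas9, 1 over D1399Y, 0 to 1 over VP64, and 0 to 1 both with VP64 and with D1399Y over dCas9. The causes were not tested.

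Same-numbered libraries correlated at 0.111, 0.319 and -0.176 for the core with dCas9, and at 0.426, 0.182 and 0.015 for the core with D1399Y. For VP64 with dCas9 they correlated at 0.467, 0.031 and 0.229. Libraries of different numbers reached 0.214, 0.239 and 0.117 in these comparisons, in the same order. The values for same and different numbers thus overlapped, and a pairing there is left undecided. The replicate block changed no call among the 8 other genes, the lists or the neighbours. At 2 to 8 KDR counts per library outside the core group, the intervals on KDR reach 2.55-fold for VP64 over dCas9 and 2.91-fold for D1399Y over dCas9.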
